A study of Solanum lycopersicum with 24 samples.

Results

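The genes described here are 100 genes of the tomato anther that kept a broadly similar mRNA level through 3 stages of male development at control temperature and had the deepest shared loss of mRNA under long-term mild heat. They were taken from the 35768 genes of the deposited table of FPKM values (fragments per kilobase of gene, scaled by the library's counted reads, a level that allows for gene length). A first requirement was a control mean of at least 3 FPKM at every stage, which 13724 genes met. A second was that the 3 control means, each plus 1, differ by less than 3-fold, which left 12615 genes, called the flat genes below. Each flat gene then received a score, the highest of its 3 log2 ratios of heated to control mean, each mean plus 1. The 100 genes with the lowest score are the members, so a member had to be low at all 3 stages, and its score is set by the stage where it was lowered least.

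The plants were tomato, Solanum lycopersicum, of the dwarf cultivar Micro-Tom, grown with 12 h of light. Control plants (CT) had days of 25 °C, nights of 19 °C and a relative humidity of 50%, and heated plants (LTMH) were moved at flowering to days of 34 °C, nights of 28 °C and a relative humidity of 68%. Anthers were collected about 5 h into the light period, after 4 days for tetrads, 6 days for free microspores and 8 days for polarized microspores. Each of the 6 groups had 4 libraries of poly-A RNA, each from 6 pooled anthers. Temperature and humidity changed together and cannot be told apart. Stage and days in the condition also changed together, so a heat effect that differs between stages cannot be told from one that differs with days. No label ties the 4 libraries to separate plants, and the p-values speak only of the spread between these libraries.

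Pollen development is one of the most heat-sensitive steps in the life of a tomato plant, and mild heat that lasts for days can leave plants with few viable pollen grains. In the anther, meiosis yields tetrads held in a callose wall, free microspores are then released, and polarized microspores have moved their nucleus to one side before the division that forms pollen. The tapetum, the inner wall layer that feeds the microspores, is most active early and then degenerates, so many anther mRNAs rise or fall steeply with stage.

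No member can be given a name or a function. The deposited files list identifiers only, and the reference table used here, of RefSeq genes (assembly SLM_r2.1), lists 41476 genes, none of which shares an identifier with the 35768 listed (0 matches). For the same reason the anther label could not be checked against marker genes, and no sequence is shown. The sources used here do not say whether counting separated the strands or near-identical copies, and levels of overlapping or duplicated genes are uncertain. In whole anthers, fewer cells of a type and less RNA per cell cannot be told apart.

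Library totals ranged from 15657765 to 22987661 reads, of which 56896 to 170999 fell in the members. Within groups, each library's median Pearson correlation to the other 3 over the flat genes lay between 0.973 and 0.992. Tetrad CT replicates 1 and 2 differed less than any other replicate pair in the series, with a chi-square of 4.63 per degree of freedom, but by more than sampling noise. No label says whether they come from 1 source, and if they do, the 4 tetrad controls count for fewer than 4 independent samples. In 1 control library, polarized microspore CT replicate 4, the members stood apart. Results at that stage include it, and some are also given without it.

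The 100 members spanned a wide range of abundance in control anthers. Their mean over the 12 CT libraries ran from 3.68 to 761 FPKM with a median of 22.0 FPKM, against a median of 15.3 FPKM for the other 12515 flat genes. There were 29 members below 10 FPKM and 15 at 100 FPKM or more. The members took 0.669 ± 0.0298% of all reads in tetrad CT libraries and 0.346 ± 0.0560% in tetrad LTMH libraries (SD, n = 4 each). With free microspores their share was 0.704 ± 0.118% in CT and 0.410 ± 0.0551% in LTMH, and at the polarized microspore stage 0.756 ± 0.138% and 0.364 ± 0.0345% (SD, n = 4 each). These differences follow from the choice of members and are given as a description.

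The scores ran from -1.88 to -0.49 (log2), with -0.65 at rank 50. Just inside the limit, the gene at rank 100, Solyc09g097770.3, had log2 ratios of -0.84, -0.68 and -0.49 at the tetrad, free and polarized microspore stages. Just outside it, Solyc07g056420.4 had -0.65, -0.48 and -0.99. The limit therefore cuts through a continuous series, and 2410 of the flat genes, 19.1%, had a score below 0. Under the mirror of this rule, which takes the 100 flat genes with the highest value of their smallest log2 ratio, the scores ran from 2.44 to 0.52.

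At the tetrad stage the LTMH mean was 52.5% of the CT mean in the median member, with members from 16.5% to 70.8%. At the free microspore stage the median was 56.4%, with a range of 23.8% to 71.3%, and at the polarized microspore stage 51.3%, with a range of 17.7% to 69.8%. Over all flat genes the medians were 110%, 103% and 98.1%. There were 19 members whose LTMH mean was at least 2-fold below the CT mean at all 3 stages, and 64 with such a loss at 1 stage or more. Losses of 4-fold or more at any stage were seen in 6 members.

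**Figure D1:**
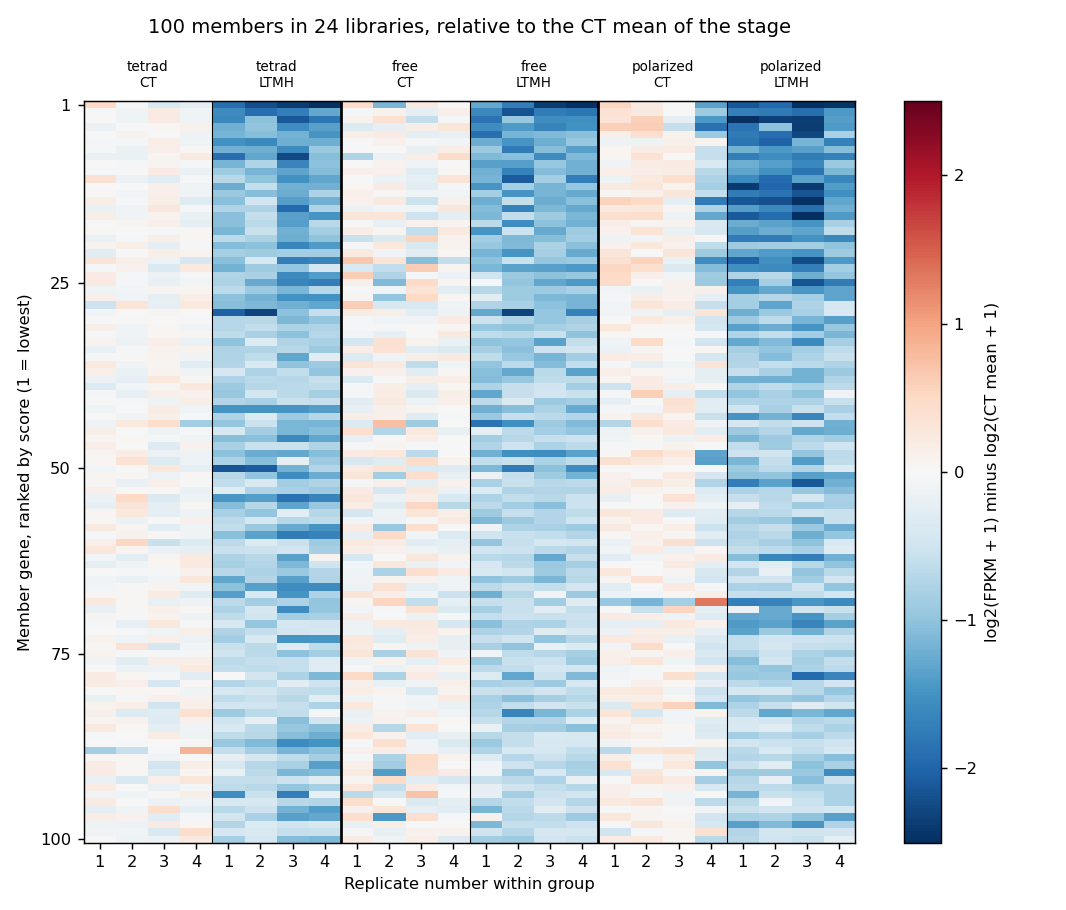
Level of each of the 100 members (rows, ranked by score, 1 at the top) in each of the 24 libraries (columns, by stage, temperature and replicate number), as log2(FPKM + 1) minus log2 of the CT mean of the stage plus 1; colours saturate at 2.5 in either direction. The LTMH columns are blue at all 3 stages, and polarized microspore CT replicate 4 is bluer than the other 3 CT columns of its stage in most rows.

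In the fitted counts, which use scaling factors that the FPKM values lack, the median log2 change of members in LTMH was -1.09 for tetrads, -0.89 for free microspores and -0.97 for polarized microspores. Over all 21429 genes tested the medians were -0.01, -0.02 and 0.00. All 100 members passed the filter on low counts. At the tetrad stage 96 members were called lower in LTMH (edgeR quasi-likelihood test, adjusted p below 0.05), where 12.9% of all tested genes and 15.4% of the flat genes were. For free microspores 77 were called lower, against 4.61% of all tested and 6.25% of the flat genes, and for polarized microspores 84, against 10.7% and 15.3%. A total of 68 members were called lower at all 3 stages, against 1.92% of all tested and 2.78% of the flat genes, with 22 called at 2 stages and 9 at 1. Since the rule used these contrasts, the counts describe the members and are no evidence about them. The member called at no stage, Solyc06g069270.1 at rank 92, had CT means of 9.74, 9.89 and 11.1 FPKM and LTMH means of 6.59, 6.55 and 6.99 FPKM in stage order, and was picked for mention after its values were seen.

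Every LTMH library lay below every CT library in 85 members at the tetrad stage, where the same held for 7.64% of all tested genes. The number was 73 members at the free microspore stage against 3.80% of genes, and 73 at the polarized microspore stage against 12.2%. Groups were apart in this way at all 3 stages in 51 members, against 0.765% of all tested genes, and at no stage in 4 members, against 80.8%.

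Solyc05g053400.2 had the lowest score of all. At the tetrad stage its 4 CT libraries held 27.6, 18.5, 14.5 and 15.99 FPKM and its 4 LTMH libraries 4.48, 3.33, 2.89 and 1.95 FPKM. Every heated library was far below every control library there, with means of 19.2 ± 5.87 and 3.16 ± 1.05 FPKM (SD, n = 4 each), a 6.06-fold lower level. At the free microspore stage the CT libraries held 31.1, 9.66, 26.7 and 22.3 FPKM and the LTMH libraries 8.65, 6.06, 3.53 and 3.14 FPKM. The groups again did not overlap, although CT replicate 2 lay just above LTMH replicate 1. At the polarized microspore stage the CT values were 36.8, 28.9, 25.0 and 9.36 FPKM and the LTMH values 4.94, 5.76, 3.28 and 3.79 FPKM. CT replicate 4 was the lowest control by a wide margin and still above all heated libraries. The fitted log2 changes were -2.75 ± 0.44, -2.11 ± 0.43 and -2.49 ± 0.43 (SE) in stage order, the most negative of any member at each stage.

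Solyc03g005280.3, at rank 2, was steadier between libraries. At the tetrad stage it stood at 20.4, 19.2, 23.97 and 18.9 FPKM in CT and at 6.27, 4.79, 5.496 and 7.92 FPKM in LTMH. Free microspore libraries held 22.7, 24.8, 19.5 and 25.2 FPKM in CT and 6.93, 4.34, 6.21 and 5.80 FPKM in LTMH. The groups were far apart at both stages, with LTMH means at 29.7% and 25.2% of the CT means. Polarized microspore CT libraries held 21.0, 19.0, 15.96 and 8.19 FPKM and LTMH libraries 4.21, 3.97, 3.59 and 5.30 FPKM. The groups did not overlap there either, and CT replicate 4 was again the lowest control. The fitted log2 changes of -1.93 ± 0.21, -2.05 ± 0.22 and -1.92 ± 0.22 (SE) were nearly equal at the 3 stages.

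The 2 most abundant members overlapped between temperatures at 1 stage or more. Solyc07g043390.3, at rank 97, had a mean of 761 FPKM over the CT libraries. Its tetrad values were 619, 588, 458 and 529 FPKM in CT and 398, 311, 214 and 227 FPKM in LTMH, with no overlap. Free microspore CT libraries held 902, 248, 896 and 656 FPKM and LTMH libraries 731, 409, 429 and 359 FPKM. The groups overlapped, since CT replicate 2 was the lowest of all 8 libraries and LTMH replicate 1 lay above CT replicate 4. Polarized microspore values were 1286, 1110, 1083 and 761 FPKM in CT and 604, 621, 529 and 414 FPKM in LTMH, without overlap. Solyc08g080170.3, at rank 24, averaged 439 FPKM in CT. Its tetrad libraries held 564, 480, 441 and 475 FPKM in CT and 292, 281, 162 and 187 FPKM in LTMH. Free microspore CT libraries held 784, 304, 501 and 463 FPKM and LTMH libraries 363, 268, 252 and 267 FPKM, and at the polarized microspore stage 444, 345, 298 and 169 FPKM and 182, 192, 135 and 159 FPKM. Its groups were apart at the tetrad stage and overlapped at both later stages. At the free microspore stage CT replicate 2 lay below LTMH replicate 1. At the polarized microspore stage CT replicate 4 lay below LTMH replicates 1 and 2.

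**Figure D2:**
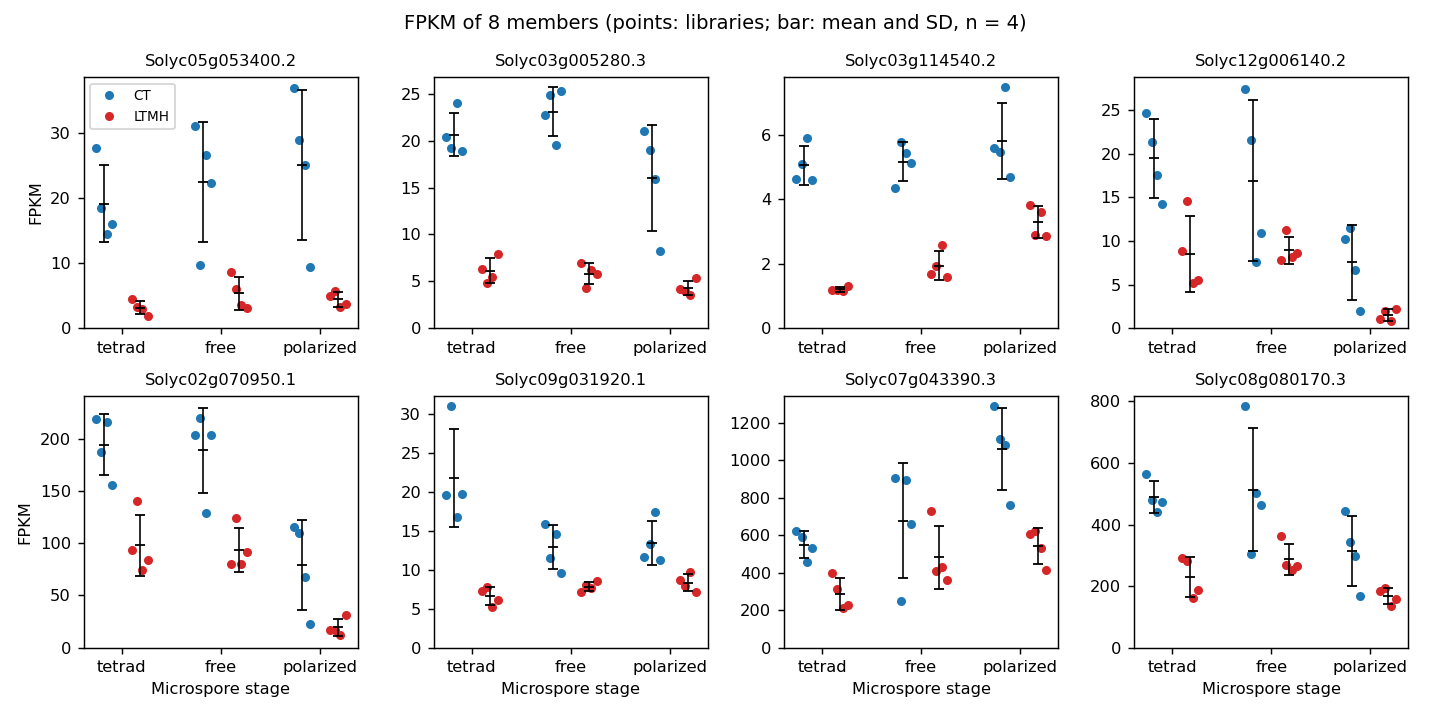
FPKM of 8 members in the 24 libraries, by stage (tetrad, free microspore, polarized microspore) and temperature; points are libraries, and the bar is the mean with its SD (n = 4). Solyc05g053400.2 and Solyc03g005280.3 have no overlap between CT and LTMH at any stage, whereas Solyc07g043390.3 and Solyc08g080170.3 overlap at the free microspore stage.

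The members as a whole lay below the CT mean of the stage in every heated library. The rule used the means of these libraries, so the values here are a description. Relative to the CT mean of the stage, the median member stood at -0.76, -0.71, -1.13 and -0.90 (log2) in tetrad LTMH replicates 1 to 4. Free microspore LTMH libraries lay close together at -0.81, -0.74, -0.82 and -0.81, and polarized microspore LTMH libraries at -0.87, -0.84, -0.997 and -0.83. Between 99 and 100 of the 100 members were below their CT mean in each of these 12 libraries. The flat genes as a whole had medians between -0.05 and 0.20 in the same libraries.

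The control libraries lay near 0 except for 1. Tetrad CT libraries had medians from -0.04 to 0.02 and free microspore CT libraries from -0.06 to 0.06. At the polarized microspore stage CT replicates 1, 2 and 3 stood at 0.06, 0.14 and 0.06, and replicate 4 at -0.38. In that library 81 members were below their CT mean, and 74 members had the lowest value of the 4 controls there, against 41.8% of the flat genes. In 51 members it lay below the other 3 controls and above all heated libraries, and in 24 it lay at or below the highest heated library. The counts of 81, 51 and 24 were not made over the flat genes. Members were chosen for control means above heated means, so these counts are descriptions. In this library the median of the flat genes was -0.04. Its total of 18638171 reads was within the range of the other polarized microspore CT libraries, 15657765 to 20075897. Without it, the groups did not overlap in 93 rather than 73 members. The same held for 24.8% rather than 17.1% of the flat genes. At that stage 89 rather than 84 members were then called lower, against 10.2% of the genes then tested and 10.7% with all libraries. Leaving this library out moved the median fitted log2 change of members at that stage from -0.97 to -1.04. The labels give no batch or date for it, and its part in the results was not tested beyond leaving it out.

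**Figure D3:**
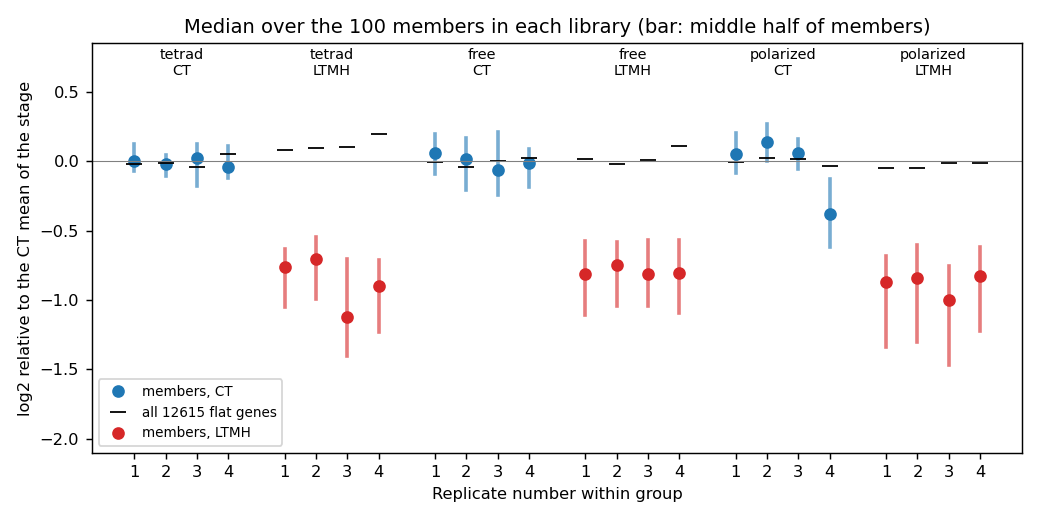
Median of the 100 members in each library relative to the CT mean of its stage, as log2(FPKM + 1) differences; points are medians, vertical bars the middle 50% of members, and short black lines the median of all 12615 flat genes. All 12 LTMH libraries lie between -1.13 and -0.71, and polarized microspore CT replicate 4 lies at -0.38, between the groups.

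The same loss was then read in libraries that took no part in the choice. For each replicate number in turn, 100 genes were chosen by the same rule from the other 18 libraries and read in the 6 libraries left out, as log2(LTMH + 1)/(CT + 1) of the pair of libraries with that number at each stage. The numbers name libraries, and no label says that they pair them. Between 77 and 83 of the 100 genes chosen were members. At the tetrad stage the chosen genes had medians of -0.73, -0.66, -1.03 and -0.83 in the left-out pairs 1 to 4, a mean of -0.81 ± 0.16 (SD, n = 4), against -0.80 on average in the libraries that chose them. At the free microspore stage the medians were -0.72, -0.66, -0.64 and -0.80, a mean of -0.70 ± 0.07 against -0.78. At the polarized microspore stage they were -0.94, -0.92, -0.96 and -0.43, a mean of -0.81 ± 0.25 against -0.90.

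The shallow value is the pair that holds polarized microspore CT replicate 4. Counted by gene, 98, 95, 96 and 100 of the chosen genes were lower in the heated library of the left-out tetrad pair, 95, 84, 93 and 97 at the free microspore stage, and 96, 98, 98 and 78 at the polarized microspore stage. Of the flat genes, between 32.47% and 36.28% were lower in the left-out tetrad pairs. Their share ran from 35.25% to 47.31% at the free microspore stage and from 47.02% to 60.63% at the polarized microspore stage. In all 3 left-out pairs at once, 91, 78, 88 and 75 genes were lower. The same held for 17.0%, 19.8%, 15.1% and 10.9% of the flat genes in these pairs. No test was made, because the 4 choices share most of their libraries.

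**Figure D4:**
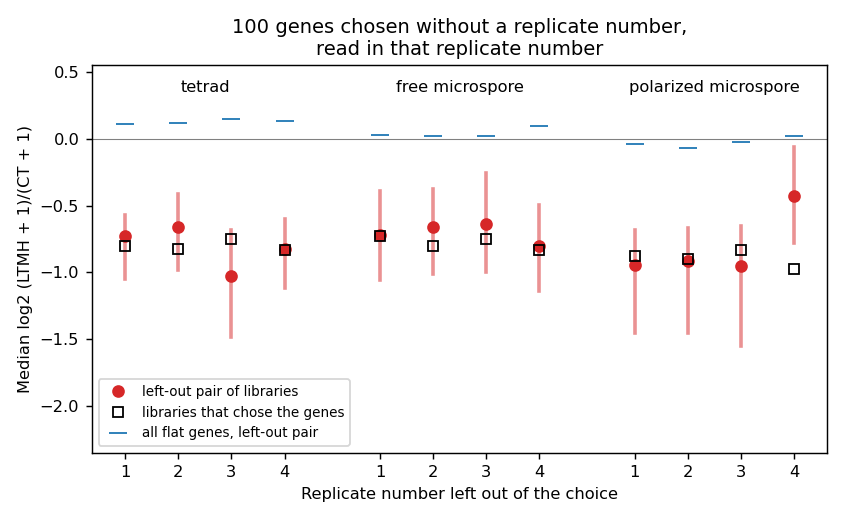
Median log2 ratio of LTMH to CT, each FPKM plus 1, of 100 genes chosen without a given replicate number; red points are the left-out pair of libraries with the middle 50% of genes as a bar, open squares the libraries that made the choice, and blue lines all flat genes in the left-out pair. Left-out medians lie between -1.03 and -0.64 except for polarized microspore replicate 4 at -0.43.

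The stage of deepest loss differed between the ratios of the rule and the fitted counts. By the log2 ratios of the rule, the loss was deepest at the polarized microspore stage in 56 members, at the tetrad stage in 30 and at the free microspore stage in 14. In the fitted counts, with their scaling factors, the order of the outer stages turned, with 49 members deepest at the tetrad, 39 at the polarized microspore and 12 at the free microspore stage. These measures also differ in the added 1 and in the model, and what turned the order was not tested. The stage of least loss by the rule, which sets the score, was the tetrad stage in 41 members, the free microspore in 34 and the polarized microspore in 25. The rule used the means behind both heat effects, so a difference of heat effects between stages is not fully independent of the choice of members. The heat effect differed between the polarized microspore and tetrad stages in 3 members (edgeR interaction test, adjusted p below 0.05), where 4.09% of all tested genes and 4.16% of the flat genes were called, so the share of members is near the background. All 3 were less lowered at the polarized microspore stage, a direction called in 2.71% of all tested genes, with 1.38% in the other. Other tools did not give 1 direction. For the outer stages DESeq2 called 3 members in each direction, with 1698 genes called in all. For the same stages limma on log2(FPKM + 1) called 4 members in each, with 2312 genes in all. For the other 2 pairs of stages edgeR called 0 members, against 0% of all genes called for either pair. At an unadjusted p below 0.05 there were 7 members between the free microspore and tetrad stages, against 10.3% of all tested genes, and 12 between the polarized and free microspore stages, against 8.37%. DESeq2 called 1 and 0 members for these pairs, against 0.511% and 0.430% of its tested genes, and limma on log2(FPKM + 1) called 0 and 0, against 0.0327% and 0.0840%. Without polarized microspore CT replicate 4 the count for the outer stages was 7 in place of 3, against 5.02% of the genes then tested, and 4 of the 7 were more lowered at the polarized microspore stage.

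Solyc03g114540.2 showed the largest such difference. Its CT libraries were alike at all stages, with 4.64, 5.09, 5.89 and 4.60 FPKM at the tetrad, 4.34, 5.77, 5.43 and 5.11 FPKM at the free microspore and 5.60, 5.46, 7.48 and 4.69 FPKM at the polarized microspore stage. Its LTMH libraries held 1.18, 1.18, 1.16 and 1.32 FPKM at the tetrad stage, 1.68, 1.93, 2.57 and 1.59 FPKM at the free microspore stage and 3.83, 2.88, 3.61 and 2.86 FPKM at the polarized microspore stage. Heated anthers therefore had 23.97%, 37.6% and 56.7% of the control level at the 3 stages in order, with no overlap at any stage. The heat effect was 1.40 ± 0.23 (log2, SE) less negative in polarized microspores than in tetrads (edgeR adjusted p = 0.00602). In LTMH its level rose by 1.43 ± 0.17 (log2, SE) between these stages (edgeR adjusted p = 1.65e-06), whereas the CT difference was 0.03 ± 0.16 (SE, edgeR adjusted p = 0.879).

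Solyc09g031920.1 and Solyc09g090050.3 were called for the same difference by another route, with controls that fell. Solyc09g031920.1 held 19.6, 31.0, 16.8 and 19.7 FPKM in tetrad CT and 7.28, 7.78, 5.25 and 6.17 FPKM in tetrad LTMH libraries. Free microspore libraries held 15.8, 11.5, 14.5 and 9.61 FPKM of it in CT and 7.16, 8.02, 7.59 and 8.51 FPKM in LTMH. Its groups were apart at both of these stages, and the controls came down while the heated libraries did not. Polarized microspore libraries held 11.6, 13.3, 17.4 and 11.2 FPKM in CT and 8.66, 7.86, 9.73 and 7.16 FPKM in LTMH. The groups were apart here too. Its heat effect differed by 1.19 ± 0.27 (log2, SE, edgeR adjusted p = 0.0185). Solyc09g090050.3, mentioned because it completes the 3, had 30.5, 29.7, 29.9 and 30.7 FPKM in tetrad CT and 15.1, 13.6, 9.44 and 10.03 FPKM in tetrad LTMH libraries. Free microspore libraries had 16.1, 21.96, 15.4 and 12.6 FPKM in CT and 8.22, 10.6, 12.2 and 11.9 FPKM in LTMH, again apart. In polarized microspore libraries it had 13.9, 15.0, 14.4 and 15.6 FPKM in CT and 10.4, 9.85, 9.75 and 10.2 FPKM in LTMH. Its controls came down by more than its heated libraries, whose range narrowed. Its heat effect differed by 0.92 ± 0.22 (log2, SE, edgeR adjusted p = 0.0226). Leaving out polarized microspore CT replicate 3 ended this call (0.90, edgeR adjusted p = 0.0503), as did leaving out tetrad LTMH replicate 4 (0.83, edgeR adjusted p = 0.0520). In CT the level fell from the tetrad to the polarized microspore stage by 0.87 ± 0.19 in Solyc09g031920.1 (log2, SE, edgeR adjusted p = 0.000399) and by 1.20 ± 0.16 in Solyc09g090050.3 (edgeR adjusted p = 1.33e-06). In LTMH the changes were 0.32 ± 0.19 (edgeR adjusted p = 0.171) and -0.28 ± 0.16 (edgeR adjusted p = 0.141).

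In the opposite direction the 2 largest differences did not pass the test. Solyc12g006140.2 held 24.7, 21.3, 17.6 and 14.2 FPKM in tetrad CT and 8.84, 14.6, 5.22 and 5.54 FPKM in tetrad LTMH libraries. Free microspore libraries held 27.4, 21.6, 7.59 and 10.9 FPKM in CT and 7.83, 11.2, 8.16 and 8.56 FPKM in LTMH, with the lowest value in a control. Polarized microspore libraries held 10.2, 11.5, 6.63 and 1.93 FPKM in CT and 1.11, 1.96, 0.825 and 2.17 FPKM in LTMH. Its groups overlapped at every stage, through LTMH replicate 2 among tetrads, CT replicates 3 and 4 among free microspores and CT replicate 4 among polarized microspores. The difference of its heat effect was -0.98 ± 0.68 (log2, SE, edgeR adjusted p = 0.422), and it was -0.60 without tetrad LTMH replicate 2 and -1.30 without polarized microspore CT replicate 4. Solyc02g070950.1 held 219, 187, 216 and 156 FPKM in tetrad CT and 93.9, 140.3, 74.2 and 84.1 FPKM in tetrad LTMH libraries. Free microspore libraries held 203, 220, 129 and 204 FPKM in CT and 80.2, 124, 79.7 and 91.3 FPKM in LTMH, so the groups were apart at these first stages. Polarized microspore libraries held 116, 110, 67.7 and 22.6 FPKM in CT and 17.2, 16.5, 11.8 and 31.6 FPKM in LTMH, where CT replicate 4 was below LTMH replicate 4. Its difference was -0.89 ± 0.52 (log2, SE, edgeR adjusted p = 0.333).

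**Figure D5:**
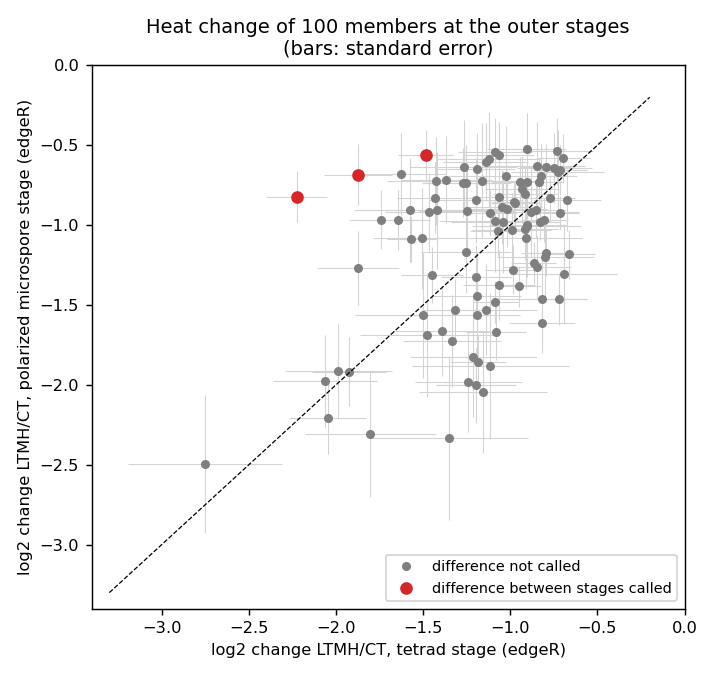
Fitted log2 change of LTMH against CT at the tetrad (x axis) and polarized microspore stage (y axis) for the 100 members, with standard errors as grey bars; the dashed line marks equal change. The 3 red points are members whose heat effect differed between these stages, all above the line, and Solyc05g053400.2 is the point at -2.75 and -2.49.

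The label of a flat course holds only as the rule defines it. Within CT the largest fold between stage means of a member, each plus 1, had a median of 1.58 and ran from 1.01 to just under 3, against a median of 1.36 over all flat genes. In CT, 60 members were called different between tetrads and polarized microspores, where 63.6% of all tested genes and 62.4% of the flat genes were called. Of these, 18 were higher and 42 lower at the later stage, against 31.0% and 32.6% of all tested genes, with 26.9% of the flat genes lower. In LTMH 54 members were called, against 52.9% of all tested genes and 49.7% of the flat genes. There 22 were higher and 32 lower, against 25.5% and 27.4% of all tested genes, with 22.0% of the flat genes lower. Both totals are near their background. A total of 42 members were called in both temperatures in 1 direction, where 45.0% of all tested genes were, so this count too is near its background. Of them 26 were lower and 16 higher at the later stage, against 23.4% and 21.6% of all tested genes, and 0 were called in opposite directions, against 0.289%. For the shorter step from tetrad to free microspores 21 members were called in CT and 15 in LTMH, against 40.7% and 21.3% of all tested genes. From free to polarized microspores 36 were called in CT and 34 in LTMH, against 41.1% and 26.0%.

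Under heat the fold between stages of a member had a median of 1.48 and a highest value of 4.89, against a median of 1.23 over all flat genes. It stayed below 3-fold in 94 members, against 99.3% of the flat genes. It was larger in LTMH than in CT in 44 members, against 24.9% of the flat genes. Solyc02g070950.1 was 2.37 ± 0.39 lower in polarized microspores than in tetrads in LTMH (log2, SE, edgeR adjusted p = 4.59e-05) and 1.48 ± 0.37 lower in CT (edgeR adjusted p = 0.00171). Solyc12g006140.2 was 2.52 ± 0.51 lower in LTMH (log2, SE, edgeR adjusted p = 0.000407) and 1.54 ± 0.46 lower in CT (edgeR adjusted p = 0.00609).

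The members were shorter than most flat genes. Gene length, recovered from the ratio of counts to FPKM, had a median of 1135 bases in members, with the middle 50% between 800 and 1596 bases, against 1688 bases in the other flat genes. The raised genes of the mirror rule had a median of 1343 bases. There were 39 members under 1000 bases, whereas 22.5% of the other flat genes and 32 of the 100 raised genes were. Of these 39 members 23 were called lower at all 3 stages, and of the 61 longer ones 45 were, where 2.81% of the shorter and 2.78% of the longer flat genes were. The rule uses a level per length, so length is not fully independent of the choice, and these are descriptions without a test.

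Tomato identifiers carry the number of a chromosome. Among numbers 1 to 12, there were between 0.247 members per 100 flat genes, for chromosome 1, and 1.42, for chromosome 12. The number 0, which stands for genes not placed on a chromosome, held 1 member among 69 flat genes. The 15 members numbered to chromosome 6 were the most for any number, out of 1119 flat genes. Next to each other in identifier order were 3 pairs of members, against 4 pairs among the raised genes. No such count was made over the other flat genes, so whether these numbers are high or low is not known. These 3 pairs include Solyc03g114540.2, Solyc07g043390.3 and Solyc08g080170.3, whose partners had CT means of 33.7, 305 and 7.93 FPKM. Whether the reads of such neighbours were shared is not known.

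Within groups, where the rule used nothing, members varied together weakly, and 1 library decided it. Over the deviations of log2(FPKM + 1) from the group mean in the 24 libraries, pairs of members had a median Pearson correlation of 0.133, against 0.0634 for pairs of other flat genes and 0.0668 for pairs of raised genes. The members' excess was seen in the 12 CT libraries, at 0.190 against 0.0470 for other flat genes, while the 12 LTMH libraries gave 0.103 against 0.0995. In the 16 tetrad and free microspore libraries alone the median was 0.0352 for members and 0.0785 for other flat genes. Without polarized microspore CT replicate 4 alone it was 0.0414 against 0.0662, so the excess was not present in the other 23 libraries. All genes of a library share its depth and its RNA, and no p is given.

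Membership rested on single libraries for part of the list. Leaving out each of the 24 libraries in turn, 55 members were chosen every time, and each choice shared 87 to 97 genes with the list. No member was chosen in fewer than 13 of the 24. Solyc03g120860.2 at rank 68, picked for mention after its values were seen, was the 1 member with a library more than 3-fold above the rest of its group. Polarized microspore CT replicate 4 held 33.6 FPKM of it against 5.19 to 6.74 FPKM in the other 3 controls. Its CT mean there was 12.95 FPKM with that library and 6.07 FPKM without it, and its LTMH mean 3.60 FPKM.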

How the data were processed

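Messenger RNA of tomato anthers was measured in 24 libraries, 4 in each of 6 groups, with groups and replicate numbers taken from the labels. The authors deposited raw read counts per gene and FPKM values for the same libraries. Dividing the deposited counts by gene length and library total gives the deposited FPKM values, and a whole-base length (tolerance 0.01 base) was recovered for all 29041 genes with reads. TopHat2 2.0.12 and HTSeq 0.6.1 appear in the submitters' processing notes. For the genome build, annotation and strand setting, no statement was found in the sources used here.

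The members were chosen on the FPKM means, with a pseudocount of 1, as the report's opening states. The counts were fitted with edgeR 4.0.16 in R 4.3.3: 6 groups, TMM scaling, the filterByExpr filter with a minimum count of 10, and the robust quasi-likelihood test with 18 residual degrees of freedom. A total of 21429 genes were tested, with Benjamini-Hochberg adjustment over all of them, and called genes had an adjusted p below 0.05. DESeq2 1.42.0, limma 3.58.1 on log2(FPKM + 1), other scalings and filters, other forms of the rule and leaving out each library served as alternatives. Totals of 15657765 to 22987661 reads per library set the counting precision, and a gene at 3 FPKM rests on few reads if it is short.

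The members, the lists and the tests were chosen with earlier results of these data known. Genes named in the text are the 2 lowest scores, the 2 most negative fitted changes at each stage, the 2 largest differences of the heat effect in each direction between the polarized microspore and tetrad stages, the 2 most abundant members, and ranks 100 and 101. Named outside this rule, after their values were seen, are Solyc06g069270.1, Solyc03g120860.2 and Solyc09g090050.3. A list of anther marker genes had been prepared for use with an annotation, and it was not used because no identifier could be matched.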

Additional observations from a re-analysis of the deposited data

Results flagged for a closer look

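Among 60 groups of 4 libraries examined, 5 held a library far from the other 3 by Dixon's criterion, where chance gives about 1 in 20 groups. In polarized microspore CT, replicate 4 had a median of members of -0.38 (log2 against the CT mean of the stage), with the other 3 libraries between 0.06 and 0.14. The members' share of all reads in that library was 0.552%, with 0.800% to 0.852% in the others. In free microspore LTMH, replicate 2 had a median of -0.74, with the others between -0.82 and -0.81, so that a small distance stood out in a tight group. Solyc03g114540.2 in tetrad LTMH stood at 1.32 FPKM in replicate 4 and at 1.16 to 1.18 FPKM in the others. Solyc08g080170.3 in free microspore LTMH stood at 363 FPKM in replicate 1 and at 252 to 268 FPKM in the others.

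The heat effect differed between the polarized microspore and tetrad stages, by the edgeR interaction test, by 1.40 (log2) in Solyc03g114540.2, by 1.19 in Solyc09g031920.1 and by 0.92 in Solyc09g090050.3, each less lowered at the polarized microspore stage. Of all tested genes 4.09% were called for this difference, so 3 of 100 members is near the background. With DESeq2 and limma the members called were split evenly between the 2 directions.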

How the results depend on the processing

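No value changed direction under any alternative run, and for the members named one by one 1050 of the recomputed values kept their side of the threshold, 57 lost a call and 8 gained one. The median log2 change moved beyond the spread between libraries only with limma on log2(FPKM + 1), to -0.85 for tetrads and -0.71 for free microspores. With the 8 libraries of a stage fitted alone, members called lower fell from 77 to 50 at the free microspore stage and from 68 to 44 at all 3 stages, in a fit with fewer samples, while the share of all tested genes fell from 4.61% to 1.08% and from 1.92% to 0.662%. Members with a heat effect that differed between the outer stages numbered 3 in edgeR, 6 with DESeq2, 7 with no scaling factor, 8 with limma and 7 without polarized microspore CT replicate 4. Over all tested genes the count rose too, from 876 in edgeR to 1698 with DESeq2, 2312 with limma and 1087 without that library. No such count was made for the fit with no scaling factor. The cause was not tested. Leaving out each library in turn gave 84 to 98 members called lower at the tetrad, 63 to 84 at the free microspore and 72 to 89 at the polarized microspore stage, 56 to 77 at all 3 stages, and 2 to 7 for the difference between the outer stages. The share of all tested genes called lower moved too, from 7.99% to 13.5%, 2.65% to 5.24%, 7.91% to 11.1% and 1.21% to 2.03%. Between the outer stages, 51 to 61 members were then called in CT and 47 to 55 in LTMH. With all 24 libraries, 63.6% and 52.9% of all tested genes were called there. In left-out libraries the medians ran from -1.03 to -0.66 at the tetrad, -0.80 to -0.64 at the free microspore and -0.96 to -0.43 at the polarized microspore stage. Other forms of the rule shared 62 (control minimum of 10 FPKM) to 95 (pseudocount of 0.1) genes with the 100 members. The alternatives for the co-variation within groups were chosen after seeing the data, and the median correlation of 0.133 became 0.190 in the 12 CT, 0.103 in the 12 LTMH and 0.0352 in the 16 tetrad and free microspore libraries, and 0.0414 without polarized microspore CT replicate 4.

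No label says that replicate numbers pair the samples. For same-numbered CT and LTMH libraries, the deviations of log2(FPKM + 1) from the group mean were correlated over the flat genes. These correlations of deviations, not of levels, ran from -0.47 to 0.43, and not every one was over 0.1. Libraries of different numbers were not compared, so these values cannot decide whether the numbers pair samples. With the replicate number as a block within each stage, with 9 residual degrees of freedom, 91, 66 and 79 members were called lower at the 3 stages and 61 at all 3, against 11.1%, 2.89%, 8.82% and 1.27% of all tested genes, with 3 for the difference between the outer stages. With a block across stages, chosen after seeing the data, 55 members were called between the outer stages in LTMH and 60 in CT.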
